A study of Mus musculus with 8 samples.

Results

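The 9 genes described here encode the machinery that moves calcium across the mitochondrial membranes. They were chosen by name, as the rows of the deposited count table for Mcu, Micu2, Micu3, Smdt1, Letm1, Vdac1, Vdac2, Vdac3 and Slc8b1, 9 of 24060 rows. Each has 1 row, and all 9 passed the filter on low counts. RNA was sequenced from whole cerebellum of 4 bigenic mice and 4 control mice. Both groups carried the CalExflox allele, which holds the plasma membrane calcium pump CalEx behind a Cre switch, and only the bigenic mice also carried Aldh1l1-Cre/ERT2, a Cre recombinase expressed in astrocytes and active after tamoxifen. All 8 mice were given tamoxifen at 75 mg/kg and cerebella were taken 5 days later. No group carried Cre without CalExflox, so effects of the pump and of Cre cannot be told apart, and the labels give no age or sex. Each library is a mouse of its own, with 35208460 to 38293012 counted reads.

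Calcium crosses the outer mitochondrial membrane through the voltage-dependent anion channels VDAC1, VDAC2 and VDAC3. It crosses the inner membrane through the uniporter, in which MCU forms the pore, EMRE (encoded by Smdt1) is the small subunit that the pore needs to conduct in animals, and EF-hand proteins such as MICU2 and MICU3 help to set the calcium level at which the pore opens. NCLX, encoded by Slc8b1, carries calcium back out in exchange for sodium, so this member is an exit route although it is grouped with the uptake genes. LETM1 is an inner membrane cation and proton exchanger whose transported ion, potassium or calcium, has been debated. In astrocytes, calcium entering mitochondria shapes cytosolic calcium signals and energy metabolism.

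Cerebellar identity and admixed tissue were checked with marker lists, summed as CPM, the read count scaled to a common library total. Purkinje cell markers summed to between 11350 and 14350 CPM and granule cell markers to between 4135 and 5689 CPM in the 8 libraries, while the 3 forebrain neuron markers Neurod6, Drd1 and Tbr1 summed to between 6.39 and 8.54 CPM, with Tbr1 below 1 CPM in each. The 10 choroid plexus markers summed to 48.9 to 55.9 CPM in bigenic libraries, but to 359, 2550, 3193 and 45.6 CPM in control libraries 1 to 4, so 3 control libraries hold choroid plexus RNA. Of the 9 choroid plexus markers tested, 8 were lower in bigenic tissue at adjusted p under 0.05. Of all genes tested, 44.3% passed that threshold, with 21.4% higher and 22.9% lower. Microglial markers summed to 68.9 to 88.1 CPM in bigenic and 93.9 to 107 CPM in control libraries, and endothelial markers to 104.5 to 120.7 and 121.6 to 135.2 CPM, and their part in the results was not tested. Summed astrocyte and Bergmann glia markers overlapped, at 4761 to 5469 and 4529 to 4964 CPM, although 3 of the 7 were higher and 2 lower. Summed oligodendrocyte markers overlapped too, at 3845 to 5350 and 3547 to 4324 CPM, with 2 of the 5 higher. Of the 6 granule cell markers 2 were higher and 2 lower, and of the 6 Purkinje cell markers 1 was higher. Among microglial markers 2 of the 5 were lower, and among endothelial markers 1 of the 5. These lists are short, and their counts stand beside the 44.3% of all genes. In whole tissue, fewer cells of a type and less RNA per cell cannot be told apart.

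The transcript of the uniporter pore was higher in bigenic cerebellum, as was that of Letm1, and the transcript of the exit route NCLX was lower. Of the 9 members, 3 passed the test (edgeR's quasi-likelihood test, Benjamini-Hochberg adjusted p under 0.05 over 15186 genes): 2 rose and 1 fell. This is 33.3% of members, beside 44.3% of all genes tested, of which 21.4% rose and 22.9% fell. The median log2 fold change of the 9 members was 0.08, and that of all genes -0.0041. For 4 members, 2 higher and 2 lower, no bigenic value overlapped a control value, which is 44.4% of members beside 40.7% of all genes. The members' share without overlap was thus close to that of all genes, and their share called was not above it. With library size alone in place of the trimmed mean of M values (TMM) scaling, 2423 genes rose and 4373 fell, and 2 members rose and 2 fell. Without control libraries 2 and 3, 1 member rose and 1 fell, among 1619 and 1775 of all genes.

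**Figure D1:**
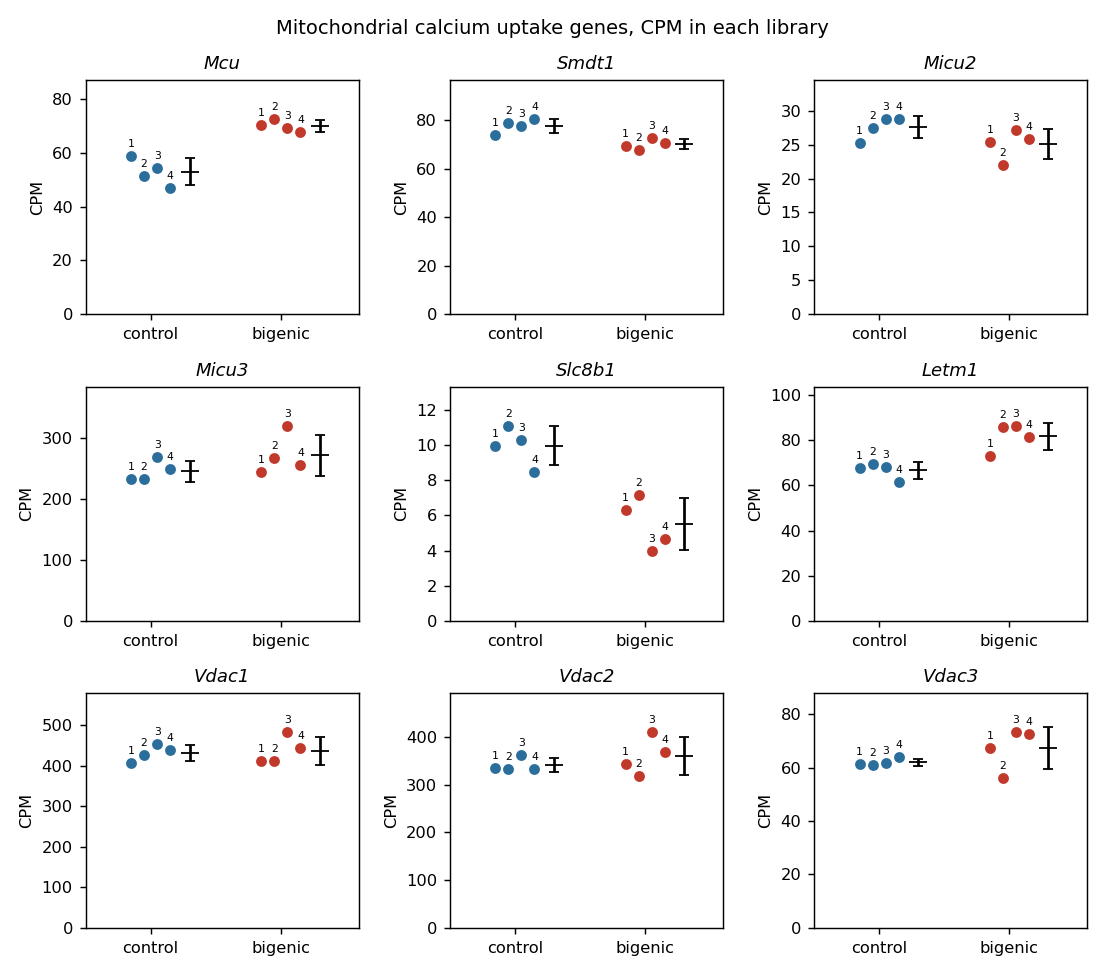
CPM on TMM-scaled library sizes (vertical axes, each starting at 0) of the 9 genes in the 4 control and 4 bigenic libraries, with mouse numbers beside the points and mean and SD (n = 4) as bars. Mcu and Letm1 lie higher and Slc8b1 and Smdt1 lower in all 4 bigenic libraries, while the 5 other genes overlap.

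Mcu, the pore subunit (ENSMUSG00000009647.13, GRCm38 chromosome 10, 59446984 to 59616692, minus strand), gave 70.3, 72.6, 69.0 and 67.8 CPM in bigenic mice 1 to 4. The controls, mice 1 to 4, gave 58.8, 51.2, 54.5 and 47.0 CPM. Every bigenic library was above every control, and the bigenic values lay closer together, with a coefficient of variation of 2.94% against 9.43%. Mean levels were 69.9 ± 2.05 and 52.9 ± 4.98 CPM (SD, n = 4), a rise of 32.3% or 0.40 ± 0.08 on the log2 scale (SE; adjusted p = 0.002). The lowest control value came from library 4, the control without choroid plexus RNA, and against that library alone the log2 difference was 0.58. That fit was chosen after seeing the data, and 1 control mouse gives no spread between controls. Across the alternatives that were run, the log2 difference stayed between 0.31 and 0.58 and adjusted p between 3e-05 and 0.039.

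Sequences upstream of the start were read for the members that rose, Mcu and Letm1, and for Smdt1, which encodes the other core subunit and did not rise. They come from RefSeq (GRCm38.p6) and were shortened where a GENCODE M21 exon begins. The Mcu window is chr10:59616693-59616942 (minus strand), the Letm1 window chr5:33782818-33782967 (minus strand) and the Smdt1 window chr15:82345796-82345953 (plus strand). The last of these precedes an internal start and lies within the intron of a longer Smdt1 isoform. Capitals mark matches on either strand to the motifs searched: the GC box GGGCGG, the CCAAT box CCAAT, the cAMP response element TGACGTCA, the AP-1 site TGACTCA and the E-box CACGTG.
Mcu: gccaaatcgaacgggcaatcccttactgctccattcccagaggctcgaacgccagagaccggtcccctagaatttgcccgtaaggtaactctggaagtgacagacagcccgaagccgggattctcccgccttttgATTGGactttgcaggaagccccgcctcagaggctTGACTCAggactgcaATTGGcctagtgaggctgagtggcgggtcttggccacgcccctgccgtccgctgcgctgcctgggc
Letm1: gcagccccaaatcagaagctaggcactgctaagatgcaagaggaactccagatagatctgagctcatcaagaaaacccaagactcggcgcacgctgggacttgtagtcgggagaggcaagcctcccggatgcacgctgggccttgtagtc
Smdt1: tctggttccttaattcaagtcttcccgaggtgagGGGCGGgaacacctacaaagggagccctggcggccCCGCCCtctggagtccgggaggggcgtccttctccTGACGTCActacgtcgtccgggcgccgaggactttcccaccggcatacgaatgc
The Mcu window held 2 CCAAT boxes, which 33.8% of all 250-base promoter windows hold at least once, and 1 AP-1 site, held by 4.46%. The Letm1 window held none of the 5 motifs. The Smdt1 window held 2 GC boxes, found in 17.8% of windows of 158 bases, and 1 cAMP response element, found in 0.402%. In windows of 250 bases these shares were 32.7% and 1.55%, so they depend on the window taken. Windows of 250 bases were also searched for Vdac1, which did not differ between groups. The window at chr11:52361347-52361596 lies inside the Vdac1 gene, which begins at 52360860. It held 3 GC boxes, found in 32.7% of windows of that length. The window upstream of the gene, at chr11:52360601-52360850, held none of the motifs. Motifs were chosen after the sequences had been seen, and a match is a string of letters and not a bound site.

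Smdt1, which encodes EMRE (chromosome 15, 82338959 to 82349091, plus strand), did not rise with the pore. Bigenic mice 1 to 4 gave 69.5, 67.8, 72.6 and 70.4 CPM, against 74.0, 78.9, 77.5 and 80.6 CPM for controls 1 to 4. All 4 bigenic values were below all 4 control values, and the spread within each group was small. The difference was -0.15 ± 0.07 on the log2 scale (SE; 95% interval -0.29 to -0.01) and did not pass after adjustment (adjusted p = 0.081). It passed with library size alone (-0.23, adjusted p = 0.012), with upper-quartile factors (-0.21, adjusted p = 0.019) and without bigenic library 3 (-0.17, adjusted p = 0.046). With library size alone and upper-quartile factors the median of all genes also moved, from -0.0041 to -0.0893 and -0.0624. Smdt1 shares exonic sequence with Pheta2 on the same strand, listed as Fam109b, which had at most 19 counts in a library where Smdt1 had at least 2427.

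The gatekeeper genes Micu2 and Micu3 showed no difference beyond the spread between mice. Micu2, an EF-hand regulator of the pore (chromosome 14, 57916261 to 57999262, minus strand), measured 25.4, 22.0, 27.1 and 25.8 CPM in bigenic and 25.2, 27.5, 28.8 and 28.8 CPM in control libraries. The groups overlapped and the log2 difference was -0.14 ± 0.09 (SE; 95% interval -0.33 to 0.06; adjusted p = 0.24). Micu3, the form enriched in nervous tissue (chromosome 8, 40307458 to 40386308, plus strand), measured 243, 267, 320 and 255 CPM in bigenic and 233, 232, 268 and 249 CPM in control libraries. Bigenic library 3 was the highest of the 8 and the others were intermixed, with a log2 difference of 0.15 ± 0.09 (SE; 95% interval -0.06 to 0.35; adjusted p = 0.22). Exons of Micu3 overlap Fgf20 on the opposite strand, a gene with at most 40 counts in any library.

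Mcub and Mcur1 act on the same channel and are not among the 9. Mcub, the pore paralog that lowers conductance and is listed as Ccdc109b, had 15 to 31 counts in bigenic and 27 to 91 in control libraries. Its log2 difference of -0.79 ± 0.38 (SE) did not pass (adjusted p = 0.11). Leaving out control library 4, the one with 91 counts, took the difference to -0.32 (adjusted p = 0.43). It grew and passed with Ttr, a choroid plexus gene, in the fit as a covariate (-1.50, adjusted p = 0.024), and was -1.655 against control library 4 alone. Ttr was at 2.253 to 4.621 CPM in bigenic libraries, 2.765 CPM in control library 4 and 300.2 CPM or more in the other controls. Both fits thus lean on control library 4, the one with 91 counts. Mcur1, a scaffold of the uniporter, was at 12.95 ± 0.616 and 11.7 ± 1.39 CPM (SD, n = 4; adjusted p = 0.28).

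**Figure D2:**
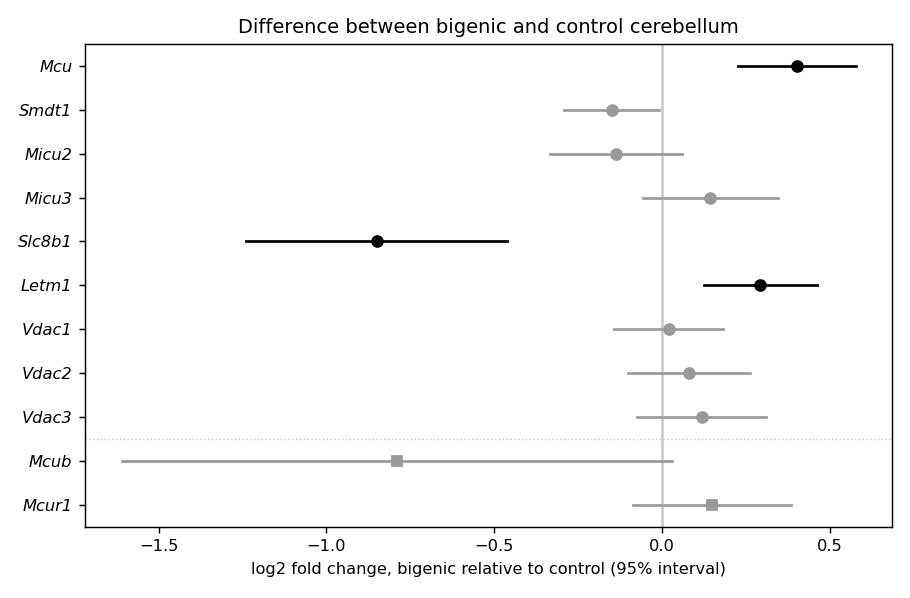
Log2 fold change of bigenic relative to control cerebellum (horizontal axis) with its 95% interval from the edgeR fit, for the 9 genes (circles) and for Mcub and Mcur1 (squares). Black marks an adjusted p under 0.05: Mcu at 0.40, Letm1 at 0.29 and Slc8b1 at -0.85.

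Because Mcu rose while Smdt1 and Micu2 did not, the ratio of each subunit's transcript to Mcu was taken within each library, per gene length. Such a ratio does not depend on how libraries are scaled. There were 4.86, 4.59, 5.16 and 5.10 Smdt1 transcripts per Mcu transcript in bigenic libraries 1 to 4 and 6.18, 7.56, 6.98 and 8.42 in control libraries 1 to 4. The groups did not overlap, and the mean log2 ratio differed by -0.56 (two-sided exact permutation p = 0.0286, the lowest possible over 70 splits of 4 and 4). This lack of overlap, and with it the lowest p, follows from Mcu being higher and Smdt1 lower in all 4 bigenic libraries. Adjusted over the 7 ratios computed, of which 6 are reported, the permutation p was 0.1 and did not pass. The Micu2 to Mcu ratio was 0.450, 0.377, 0.489 and 0.473 in bigenic and 0.534, 0.667, 0.657 and 0.761 in control libraries. It too was lower in all 4 bigenic libraries, by -0.55 on the log2 scale (exact permutation p = 0.0286, adjusted p = 0.1). Micu2 by itself overlapped between groups, with a log2 difference of -0.14, while that of Mcu was 0.40. This ratio therefore rests largely on the Mcu values that prompted it and is no separate support.

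The ratios to Mcu of Micu3 and Mcub overlapped between groups. Their log2 differences were -0.27 and -1.10 (exact permutation p = 0.0857 and 0.0571, each with adjusted p = 0.12), and without control library 4 the Mcub ratio differed by -0.71. Within the outer membrane family, Vdac2 relative to Vdac1 was 0.874 in bigenic and 0.840 in control libraries as geometric means, and Vdac3 relative to Vdac1 was 0.190 and 0.179. Neither differed beyond the spread between libraries (log2 differences 0.06 and 0.09, exact permutation p = 0.2 for each, adjusted p = 0.2).

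**Figure D3:**
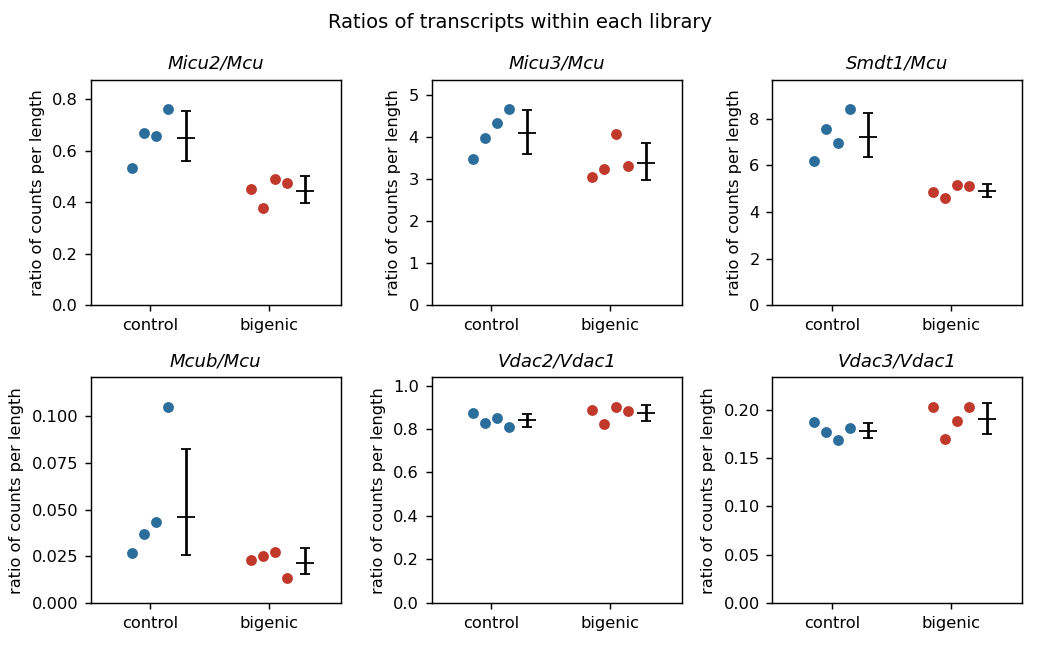
Ratio of counts per gene length of 2 transcripts within each library (vertical axes, each starting at 0), for 4 control and 4 bigenic libraries, with geometric mean and SD of the log2 ratio as bars. Smdt1/Mcu and Micu2/Mcu are lower in all 4 bigenic libraries, and the 4 other ratios overlap.

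Slc8b1, the gene of the sodium and calcium exchanger NCLX (chromosome 5, 120511168 to 120534024, plus strand), showed the largest difference of the 9 members and the only one beyond 1.5-fold. Bigenic mice 1 to 4 gave 6.30, 7.14, 3.98 and 4.64 CPM, and controls 1 to 4 gave 9.94, 11.1, 10.3 and 8.49 CPM. All bigenic values were below all control values, with bigenic libraries 3 and 4 the lowest. The level fell from 9.96 ± 1.09 to 5.52 ± 1.46 CPM (n = 4, SD), which is -0.85 ± 0.18 on the log2 scale (SE; 95% interval -1.24 to -0.46; adjusted p = 0.0027). Slc8b1 is the least abundant member, with 133 to 433 counts in a library, and it varied most between bigenic mice (coefficient of variation 26.4%). The 3 control libraries with choroid plexus RNA were also the 3 with the highest Slc8b1. With Ttr as a covariate the log2 difference was -0.61 and the call was lost (adjusted p = 0.11), and against control library 4 alone it was -0.62. Both fits lean on control library 4, the only control with Ttr as low as in bigenic libraries. Without control libraries 2 and 3 the log2 difference was -0.74 (adjusted p = 0.046).

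Letm1, the exchanger gene (chromosome 5, 33739673 to 33782817, minus strand), measured 73.1, 85.5, 86.3 and 81.3 CPM in bigenic mice 1 to 4, compared with 67.6, 69.2, 68.0 and 61.2 CPM in controls 1 to 4. The groups did not overlap, although bigenic library 1 lay close to the highest control. The rise was 22.6%, or 0.29 ± 0.08 on the log2 scale (SE; adjusted p = 0.0096). The call was lost without control libraries 2 and 3 (0.34, adjusted p = 0.059) and with the Ttr covariate (0.39, adjusted p = 0.0504), where the difference was no smaller, and on log2(FPKM + 1) with no filter (0.20, adjusted p = 0.052).

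The 3 outer membrane channel genes did not differ beyond the spread between mice. Vdac1 (chromosome 11, 52360860 to 52389397, plus strand) measured 411, 411, 482 and 443 CPM in bigenic and 407, 426, 453 and 438 CPM in control libraries. The groups were intermixed, and the log2 difference of 0.02 (95% interval -0.14 to 0.18; adjusted p = 0.85) changed sign with library size alone (-0.07). Vdac2 (chromosome 14, 21825238 to 21845879, plus strand) measured 343, 318, 409 and 369 CPM in bigenic and 335, 332, 362 and 333 CPM in control libraries. Its log2 difference was 0.08 (95% interval -0.10 to 0.26; adjusted p = 0.46) and was -0.01 with library size alone, and its exons overlap Comtd1 on the opposite strand. With library size alone the median of all genes was -0.0893, against -0.0041 in the main fit. Vdac3 (chromosome 8, 22577075 to 22593813, minus strand) measured 67.2, 56.2, 73.1 and 72.4 CPM in bigenic and 61.4, 60.8, 61.8 and 63.8 CPM in control libraries. Here 3 bigenic libraries were above all controls and bigenic library 2 was below them, for a log2 difference of 0.12 (95% interval -0.07 to 0.31; adjusted p = 0.29). Without bigenic library 2 the difference was 0.20 (adjusted p = 0.026). Bigenic library 3 had the highest value of the 8 for each of Vdac1, Vdac2, Vdac3 and Micu3.

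**Figure D4:**
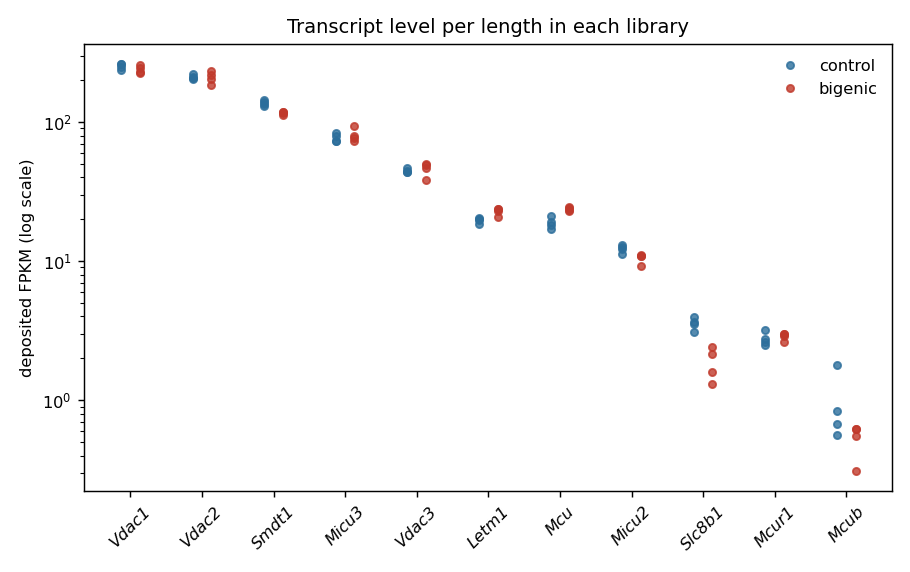
Deposited FPKM (vertical axis, log scale) of the 9 genes and of Mcur1 and Mcub in each of the 4 control (blue) and 4 bigenic (red) libraries, ordered by control mean. Levels run from Vdac1 at 251 to Mcub at 0.970 FPKM in controls, and Mcu and Letm1 change places between the groups.

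Per gene length, the outer membrane channel transcripts Vdac1 and Vdac2 were the most abundant of the 9 and Slc8b1, the exit route, the least, with Vdac3 below Smdt1 and Micu3. On the deposited FPKM scale, which takes no account of TMM, control means were 251 ± 11.1 for Vdac1, 211 ± 6.98 for Vdac2, 137 ± 6.12 for Smdt1 and 77.3 ± 5.03 for Micu3 (SD, n = 4). They were followed by Vdac3 at 44.8 ± 1.47, Letm1 at 19.7 ± 0.856, Mcu at 18.9 ± 1.65, Micu2 at 12.3 ± 0.772 and Slc8b1 at 3.56 ± 0.358 FPKM. Among neighbours in this order of 9, only Letm1 and Mcu had overlapping ranges in controls. In bigenic libraries the order was the same except that Mcu, at 23.6 ± 0.772, stood above Letm1, at 22.7 ± 1.45 FPKM, and the ranges of that pair and of Vdac1 with Vdac2 overlapped. Among genes tested, 71.6% had a lower mean FPKM than Mcu in controls and 77.3% in bigenic libraries, whereas for Slc8b1 these shares were 33.5% and 25.9%.

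The genes whose levels followed Mcu most closely from library to library, after removal of the group means, were Nfyc (Pearson r = 0.978), Sart1 (r = 0.973) and Ankrd33b (r = 0.973), among 9609 genes above 10 CPM and over 8 libraries that share their depth and scaling. These are the highest of many values and were not tested. Among the members, r with Mcu was lowest for Smdt1 at -0.868 and highest for Slc8b1 at 0.414.

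Genes that act with the uniporter in the inner membrane were called in both directions. Of 19 partners and related carriers tested, 5 rose and 2 fell (36.8% called, beside 44.3% of all genes; median log2 fold change 0.10). Ucp2, an uncoupling protein, rose from 8.85 ± 0.808 to 20.9 ± 0.510 CPM (n = 4, SD), or by 1.24 ± 0.10 on the log2 scale (SE; adjusted p = 7.4e-06). Slc25a13, a calcium-activated aspartate and glutamate carrier, rose by 0.94 ± 0.14 (SE; adjusted p = 0.00033). Ghitm, which encodes the inner membrane calcium and proton exchanger TMBIM5, fell from 560 ± 21.4 to 426 ± 6.26 CPM, a log2 difference of -0.40 ± 0.06 (SE; adjusted p = 0.00048). The other genes past the threshold, named after their values were seen, were Maip1, which promotes EMRE assembly (0.62), Slc25a12 (0.32) and the m-AAA protease subunit gene Spg7 (0.23), which rose, and Letm2 (-0.47), which fell.

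Genes of the contact between endoplasmic reticulum and mitochondria, where calcium is handed over, also went both ways. Of 20 tested, 6 rose and 2 fell (40.0% called, beside 44.3% of all genes; median 0.05). Without control libraries 2 and 3 the counts were 3 and 1. In that fit the calls over all genes also dropped, from 3249 higher and 3485 lower to 1619 and 1775. Scaling by library size alone gave 4 higher and 5 lower, beside 2423 and 4373 of all genes. The thioredoxin-related Tmx1 rose by 0.61 ± 0.10, the inositol trisphosphate receptor Itpr3 by 0.76 ± 0.14 and the fission adaptor Fis1 by 0.51 ± 0.09 on the log2 scale (SE; adjusted p = 0.00066, 0.0013 and 0.0013), and Fis1 missed the threshold with the Ttr covariate (adjusted p = 0.055). The 2 that fell, named after their values were seen, were the tether Rmdn3 (-0.29) and Bcap31 (-0.30). Of 17 VDAC partners and permeability transition genes, 8 rose and 3 fell (64.7% called, beside 44.3% of all genes; median 0.08). Without control libraries 2 and 3 the counts were 1 and 1, among the 1619 and 1775 of all genes. Scaling by library size alone gave 4 higher and 3 lower. The apoptosis regulator Bcl2 fell from 23.7 ± 2.49 to 14.1 ± 1.66 CPM (adjusted p = 0.00039), while Bcl2l1 rose from 122 ± 9.12 to 170 ± 12.8 CPM (SD, n = 4; adjusted p = 0.0007). The mitochondrial creatine kinase Ckmt1 fell by 0.29 ± 0.07 on the log2 scale (SE; adjusted p = 0.0065; 0.081 without control libraries 2 and 3). Hexokinases, which dock on VDAC, went opposite ways and are named after their values were seen: Hk1 rose by 0.29 and Hk2 fell by 0.54 on the log2 scale, both past the threshold.

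Enzymes that calcium activates in or on mitochondria, and genes that track the amount of mitochondria, were called in both directions. Of 14 genes of dehydrogenases and of the pyruvate dehydrogenase phosphatase, listed below as dehydrogenases, 2 rose and 2 fell (28.6% called, beside 44.3% of all genes; median 0.04). The counts were 0 and 0 without control libraries 2 and 3, where 1619 and 1775 of all genes were called. With library size alone they were 0 and 4, beside 2423 and 4373 of all genes. Gpd2, the glycerol phosphate dehydrogenase on the outer face of the inner membrane, fell from 150 ± 9.16 to 110 ± 14.8 CPM (SD, n = 4; adjusted p = 0.0028), and was at adjusted p = 0.059 without control libraries 2 and 3. Pdhb, the beta subunit gene of pyruvate dehydrogenase, fell by 0.25 and Pdpr, a regulatory subunit gene of its phosphatase, rose by 0.26 on the log2 scale, calls lost without those libraries (adjusted p = 0.16 and 0.11). Pdpr also missed the threshold with library size alone (adjusted p = 0.072). Of 21 genes of mitochondrial mass and import, 5 rose and 2 fell (33.3% called, beside 44.3% of all genes; median 0.03). In the same 2 fits the counts were 2 and 1 without control libraries 2 and 3, and 3 and 4 with library size alone. The import receptor Tomm20 rose from 253 ± 5.55 to 403 ± 60.5 CPM and the biogenesis regulator Ppargc1a from 29.7 ± 0.340 to 44.6 ± 6.56 CPM, while cytochrome c, Cycs, fell from 32.2 ± 1.73 to 22.9 ± 1.56 CPM (SD, n = 4; adjusted p = 0.00035, 0.00082 and 0.00083). Against control library 4 alone, all 15 genes that the rule names from these lists kept their direction. This follows from how they were chosen, because for each of them no bigenic value overlapped a control value.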

How the data were processed

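The authors deposited raw read counts per gene symbol and a table of FPKM for 8 whole-cerebellum libraries. STAR, HTSeq and mm10 are named in the submitters' processing notes. Versions, annotation and the strand setting of counting are not given in the sources used here. The labels disagree on kits and instrument. Each deposited FPKM value is the count over 1 constant gene length and the library's total, as checked on the values. FPKM were used for levels between genes and for ratios per length.

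Counts were fitted in R 4.3.3 with edgeR 4.0.16 (filterByExpr, TMM, robust quasi-likelihood F test, bigenic against control, no covariate). P was adjusted by Benjamini-Hochberg over 15186 genes. SE is the log2 fold change divided by the square root of F. CPM use TMM-scaled sizes. Alternatives used DESeq2 1.42.0, limma 3.58.1 on log2(FPKM + 1) and log2(FPKM + 0.1), other scalings and filters, fewer libraries, Ttr as a covariate and mouse number as a block. Ratios were compared by an exact permutation test on the absolute difference.

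Members and lists were chosen with earlier results of these data known. The text names all members, up to 3 called genes of smallest p per list, Mcub and Mcur1, and others where it says so. Some genes of these lists, and 1 ratio, are not reported here and are left out of the list counts. No 2 libraries were identical. On simulated counts for this comparison (15069 genes, 200 changed) the fit called 64% of 1.5-fold and 92% of 2-fold changes, and 7.14% of its calls were unchanged genes. The simulation changed far fewer genes than the 44.3% called in the data, and did not model choroid plexus RNA in controls. Its shares may therefore not hold for the data. Coordinates are GENCODE M21 (GRCm38, the build called mm10). RefSeq promoter entries were used for Mcu, Letm1, Smdt1 and Vdac1.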

Additional observations from a re-analysis of the deposited data

Results flagged for a closer look

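Vdac2 was at 362 CPM in control library 3, apart from 332 to 335 CPM in the other 3 controls. This was the 1 case in which a library stood apart among 34 groups of 4 examined, and chance alone flags about 1 in 20 groups.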

How the results depend on the processing

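Mcu and the members Micu2 and Micu3 kept direction and side of the threshold in every alternative run. Without control libraries 2 and 3, 1619 genes were higher and 1775 lower. With the Ttr covariate the counts were 1270 and 1665, and without control libraries 1, 2 and 3, a fit chosen after seeing the data in which the lone control is assumed to vary like the bigenic group, 802 and 1032. In these 3 fits 1 member (Mcu) was higher. In the last of them and with the Ttr covariate 0 members were lower, and Slc8b1 was at -0.617 and -0.614. Letm1 was at 0.338, 0.392 and 0.418 in the fits without control libraries 2 and 3, with Ttr and without control libraries 1, 2 and 3, and at 0.198 on log2(FPKM + 1) with no filter, where 1 member was higher. None of these Letm1 values passed. The cause was not tested.

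Slc8b1 and Smdt1, 2 members, were lower with library size alone, upper-quartile factors and the 3 FPKM settings. Smdt1 was then at -0.235 with library size alone, -0.208 with upper-quartile factors, -0.232 on log2(FPKM + 1) with or without the filter and -0.234 on log2(FPKM + 0.1). In the same settings Vdac1 turned to -0.066 with library size alone, -0.039 with upper-quartile factors and -0.067 on each FPKM scale, and Vdac2 to -0.006 with library size alone and -0.010 on each FPKM scale. Leaving out 1 library at a time gave 2544 to 3588 higher and 2737 to 3823 lower genes, 2 to 3 higher and 1 to 2 lower members, and ranges of -0.174 to -0.134 for Smdt1, -0.038 to 0.049 for Vdac1 and 0.069 to 0.195 for Vdac3. Ratios kept their direction throughout, from -0.633 to -0.484 for Smdt1/Mcu and from -0.640 to -0.466 for Micu2/Mcu, and from -1.363 to -0.707 for Mcub/Mcu. For Smdt1/Mcu the direction follows from the lack of overlap in both genes.

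The fit without control libraries 2 and 3 called 1619 of all genes higher and 1775 lower. In that fit the list calls were 4 higher and 1 lower for uniporter partners, 3 higher and 1 lower for contact genes, 0 and 0 for dehydrogenases, 1 and 1 for VDAC partners, and 2 and 1 for mass and import. With library size alone they were 4 higher and 2 lower for uniporter partners, 4 higher and 5 lower for contact genes, 0 higher and 4 lower for dehydrogenases, 4 higher and 3 lower for VDAC partners, and 3 higher and 4 lower for mass and import, and the medians were 0.01, -0.03, -0.04, -0.01 and -0.06 in that order of lists. The median of all genes in that setting was -0.0893, against -0.0041 in the main fit. Of all genes, 2423 were then higher and 4373 lower.

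Same-numbered mice are not stated to be paired, and their deviations correlated at 0.329, 0.0239, 0.166 and 0.0625, so not all above 0.1. With mouse number as a replicate block, 3648 genes were higher and 3795 lower, 2 members rose and 1 fell, Mcu was at 0.408, Letm1 at 0.293 and Slc8b1 at -0.875, and no call of a member changed. With 4 pairs the exact sign-flip test of a ratio cannot go below p = 0.125. Depth limits Slc8b1 and Mcub, with as few as 133 and 15 counts.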
